A study of Mus musculus with 13 samples.

Results

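Hypothalamic microglia from mice that had eaten a high-fat diet (HFD) for 9 weeks were compared with microglia from mice on control diet that had been sorted on the same plates. The authors' table of wells gave each well its diet, its length of HFD and a replicate identifier. All wells listed as HFD for 9 weeks lay on plates 10, 11 and 12, and the control wells of these 3 plates were the reference. A well was kept as a cell when it held at least 1500 estimated transcripts over the 17280 genes of the authors' filtered table. This left 82 9-week HFD cells of 144 wells and 204 control cells of 288 wells, out of 1617 cells of 2496 wells in the whole series. Just inside this limit lay a cell of 1520.69 transcripts, and just outside it a well of 1476.19.

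The study sorted single microglia of C57BL/6J mice with antibodies against CD11b and CD45 (low CD45 per its methods) and sequenced them by CEL-Seq2, a method that counts transcripts with unique molecular identifiers (UMIs) from the 3′ end. The labels name the tissue only as brain, and the hypothalamus comes from the study's methods. No altered allele is named for either group, controls ate standard chow, and the HFD was a rodent diet with 60% fat. The labels give neither age nor sex. The study's methods state that its mice were male, and the names of all cells compared here carry the mark 24wks in the table of wells, which does not say what it stands for. Their treatment text speaks of a shorter HFD for every plate, so the length of 9 weeks rests on the table of wells alone. The control group held the identifiers M1, M2, M3 and M4 and the 9-week HFD group held M7 and M8. Each identifier had 24 wells on each of the 3 plates. The table does not say if each identifier was a separate mouse, so the p-values measure only the spread between identifiers, which may be technical. The comparison asked how microglial transcription differed after prolonged HFD.

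Microglia are the resident macrophages of the brain. In the healthy brain they hold a homeostatic programme of surface receptors such as P2ry12, Cx3cr1 and Csf1r, and they can switch on inflammatory, interferon, phagocytic and lipid-handling genes when challenged. Long feeding with fat is known for microglial activation in the hypothalamus, the region that senses nutrients and sets food intake. Immediate early genes such as Jun and Fos encode transcription factors that are switched on within minutes of many stimuli, including the handling of tissue and cells.

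The diets were also tied to the position of the wells. On all 3 plates the control wells used cell barcodes 1 to 96 and the 9-week HFD wells used barcodes from 97 upwards, and each identifier kept its own barcodes on every plate. Diet and range of barcodes can therefore not be told apart on these plates. Wells that passed as cells numbered 47, 51, 56 and 50 for the controls and 40 and 42 for 9-week HFD, of 72 wells each. Summed totals ran from 147983 to 224833 transcripts per replicate and the median depth of cells was lowest on plate 12 in all 6 replicates. Median transcripts per cell were 3507 ± 442 (SD, n = 4) in the controls and 3612 ± 373 (SD, n = 2) after 9 weeks, a difference of 104 (two-sided exact permutation p = 0.867, adjusted p over 3 cell measures = 0.867).

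The label was checked against marker genes. All 204 control cells and all 82 HFD cells held at least 3 UMIs of a list of 8 microglial markers, among them P2ry12, Tmem119, Cx3cr1, Csf1r, Sall1, Siglech and Fcrls. Of the 11 marker lists of other cell types, 9 reached 3 UMIs in at most 2 control cells and 1 HFD cell. Many listed markers were absent from the filtered genes, so these lists were checked only in part. Genes counted were 2 of 8 for neutrophils, 5 of 8 for monocytes, 6 of 9 for astrocytes and 4 of 10 for lymphocytes. For erythroid cells only 1 of 5 was counted, Hbb-bs, and it had no UMI. The oligodendrocyte list reached it in 12 control cells (5.88%, exact 95% interval 3.08 to 10) and 4 HFD cells (4.88%, 1.34 to 12). The lymphocyte list reached it in 59 control cells (28.9%) and 24 HFD cells (29.3%). It rested mainly on Ighm, which had 384 UMIs in 148 control cells and 140 UMIs in 62 HFD cells. In control and HFD cells Cd79b had 12 and 4 UMIs, Ms4a1 had 5 and 2, and Cd3d had 2 and 0. These intervals cover counting error only.

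Jun was the only gene that passed the test. Of 4172 genes tested, 1 was called at an adjusted p under 0.05 (0.024% of the genes, edgeR quasi-likelihood test with Benjamini-Hochberg adjustment). Jun was lower after 9 weeks of HFD. No gene was called higher, with 82 genes higher at an unadjusted p under 0.05 in edgeR (1.97%) and 14 in DESeq2, which called 0 genes in either direction. Genes lower at an unadjusted p under 0.05 in edgeR numbered 119 (2.85%), which gave 201 in either direction (4.82%). Both HFD replicates lay below all 4 controls for 305 genes (7.31%) and above them for 308 genes (7.38%). These counts, and the non-overlap of genes given below, are for sums over the 3 plates together unless a plate is named. Several of the genes named below as not overlapping did overlap on single plates. The median log2 fold change over all genes was 0.00, and 49.9% of the genes had a negative one.

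**Figure D1:**
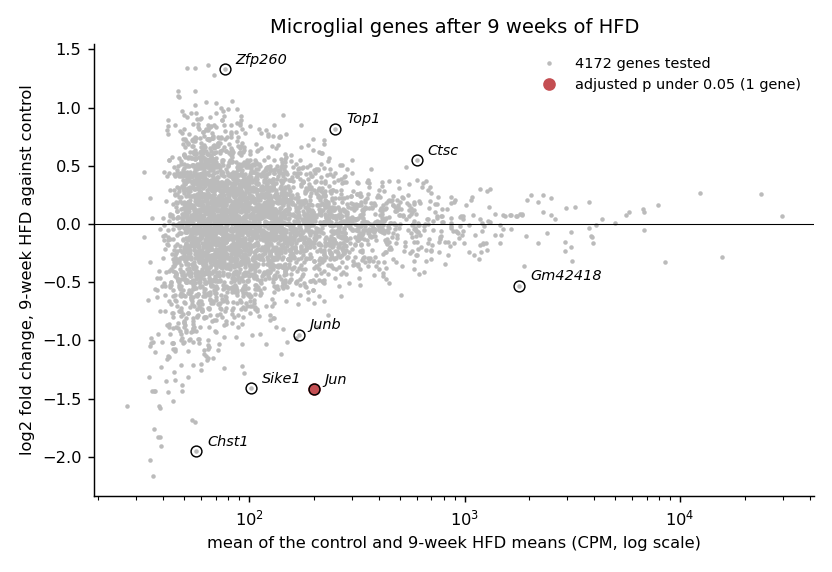
Log2 fold change of 9-week HFD against control (vertical axis) against the mean level in counts per 1000000 transcripts (CPM, logarithmic horizontal axis) for the 4172 genes tested. Grey points are genes and the red point is Jun, the 1 gene with an adjusted p under 0.05, at -1.42, while the genes circled in black without red, among them Chst1 at -1.95 and Zfp260 at 1.33, did not pass.

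Jun (chr4:95049034-95052222, minus strand, GRCm38) encodes a subunit of the transcription factor AP-1. Its level in CPM, that is, per 1000000 transcripts of the filtered genes, was 317, 403, 246 and 196 in control replicates M1, M2, M3 and M4, and 97.4 and 121 in HFD replicates M7 and M8. Both HFD replicates therefore lay below every control. The means were 290 ± 89.9 (SD, n = 4) and 109 ± 16.6 (SD, n = 2), and Jun fell by 1.42 on the log2 scale (SE 0.28, edgeR quasi-likelihood test, adjusted p = 0.0023). These levels rested on 227 UMIs in control and 34 in HFD cells. A Jun UMI was found in 48.9, 62.7, 44.6 and 46% of the cells of M1, M2, M3 and M4, and in 27.5 and 28.6% of those of M7 and M8. After each cell was thinned to 1200 UMIs the shares were 31.9, 29.4, 30.4 and 22% in the controls and 12.5 and 11.9% after HFD. The shares of both HFD replicates lay below those of all controls either way. Cells with 3 or more Jun UMIs numbered 31 of 204 in control and 2 of 82 in HFD. They numbered 8, 13, 6 and 4 in M1, M2, M3 and M4, and both HFD cells were from M8. The 5 cells richest in Jun held 18.9% of the control UMIs. No other cell type was sorted on these plates, so these shares have no background to be read against.

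The same comparison was made within each plate. On plate 10 Jun was 332 ± 143 CPM in the controls (SD, n = 4) and 86.3 ± 19.7 CPM after HFD (SD, n = 2). On plate 11 the values were 291 ± 96.9 and 117 ± 39.7 CPM, and on plate 12 they were 265 ± 217 and 125 ± 24.4 CPM. On all 3 plates both HFD replicates lay below all 4 controls, although the gap was narrow on plate 11, with M8 at 145 CPM and M4 at 147 CPM, and on plate 12, with M7 at 142 CPM and M1 at 144 CPM. With sums per replicate and plate and the plate as a block, edgeR gave a log2 fold change of -1.40 (adjusted p = 0.00325), a fit that takes the 3 sums of each identifier as independent samples. The call was lost with DESeq2 (-1.41, adjusted p = 0.832) and with limma-voom on those same sums and the replicate as a random effect (-1.29, adjusted p = 0.259). It was also lost without plate 10 (adjusted p = 0.0901) or plate 11 (adjusted p = 0.293) and without control replicate M2 (-1.20, adjusted p = 0.253) or HFD replicate M7 (-1.28, adjusted p = 0.188), all by edgeR. The log2 fold change was negative under all 20 alternatives, between -2.05 and -1.20.

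**Figure D2:**
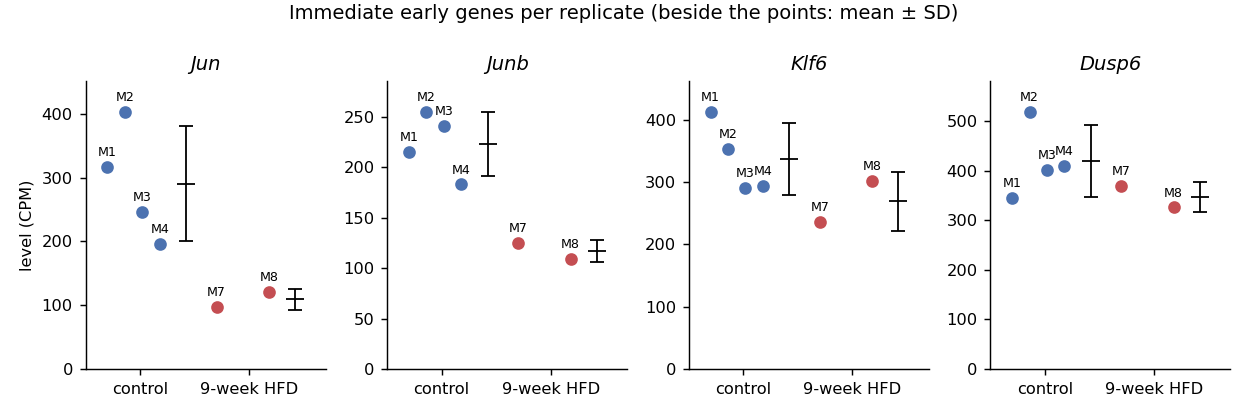
Levels in CPM (vertical axes, from 0) of 4 immediate early genes in the control replicates M1 to M4 (blue) and the 9-week HFD replicates M7 and M8 (red), with mean and SD beside the points. For Jun and Junb both HFD replicates lie below all controls, with Junb at 125 and 109 CPM after HFD, and for Klf6 and Dusp6 the groups overlap.

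Because the range of barcodes differed with the diet, Jun was also examined on the other plates. The 16-week HFD replicates M5 and M6 lay on the same plates with barcodes from 97 upwards, and shared the controls. Without further scaling their Jun was 144 and 74.7 CPM, beside 94.6 and 123 CPM in M7 and M8 and 198 to 401 CPM in the controls. On plates 7 and 9 the layout was the other way round, with a 1-week HFD replicate in barcodes 1 to 96 and a control replicate in those from 97 upwards. There Jun was 573 CPM after HFD and 372 CPM in control on plate 7, and 219 and 125 CPM on plate 9. On both plates it was higher in the lower barcodes, whose cells had eaten HFD. On the 5 other plates with control in the lower barcodes and HFD in the upper ones, Jun was higher in control on 4, the exception being plate 3 with 164 CPM in control and 604 CPM after HFD of 16 weeks. Where 1 diet filled both ranges of 1 plate with at least 10 cells in each, Jun was higher in barcodes 1 to 96 in 5 of 6 cases. Cells of HFD for 3 days from the same 2 identifiers on plate 4, for example, had 134 CPM in the lower barcodes and 94 CPM in the upper ones. The exception was control on plate 13, with 158 and 172 CPM. Control replicates on other plates ranged from 25.4 to 1502 CPM over 14 sums with a median of 433 CPM, a span that takes in every value of 9-week HFD. These comparisons were chosen after the values were seen and carry no test.

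**Figure D3:**
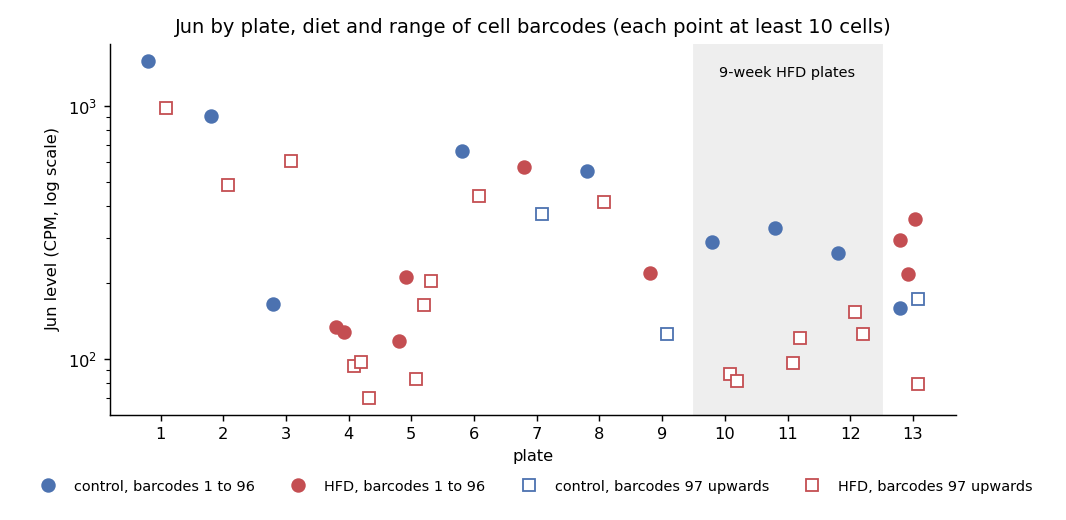
Jun level in CPM (logarithmic vertical axis) on each of the 13 plates, with control cells in blue and HFD cells of any length in red. Filled circles are sums over cells with barcodes 1 to 96 and open squares sums over barcodes from 97 upwards, and on the shaded plates 10 to 12, which hold 9-week and 16-week HFD, every control sum is a filled circle and every HFD sum an open square.

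The Jun product binds DNA at AP-1 sites and at similar sites of the kind TGACATCA, and the Jun promoter is known for such a site. The 250 bases before the start of Jun in RefSeq (GRCm38.p6, chr4:95052223-95052472, minus strand) are given here to show the only gene that passed, with TGACATCA in capitals.
Jun: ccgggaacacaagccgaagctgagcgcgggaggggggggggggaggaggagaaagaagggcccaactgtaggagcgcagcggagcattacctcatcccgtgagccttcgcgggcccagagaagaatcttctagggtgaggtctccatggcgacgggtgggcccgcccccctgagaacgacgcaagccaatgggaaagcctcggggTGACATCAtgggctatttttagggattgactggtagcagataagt
The match spans bases 45 to 38 before the start. TGACATCA, read on both strands, was in 2.93% of 32851 such windows of all genes. TGANTCA, a pattern that takes in the common AP-1 site but allows any middle base, was in 6.75%. It was not in the windows of Jun and Junb. The Junb window held no TGACATCA either.

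Among the immediate early genes, 9 of the 23 in the data were tested. Of these 9, 2 were lower at an unadjusted p under 0.05 (22.2%, beside 2.85% of all genes) and none was higher, and the median log2 fold change was -0.22. Junb, another AP-1 subunit, had 215, 255, 241 and 183 CPM in the controls and 125 and 109 CPM after HFD (log2 fold change -0.95, SE 0.29, edgeR adjusted p = 0.411). Both HFD values lay below all controls over the 3 plates together, but on plates 10 and 12 alone the groups overlapped. Klf6, a transcription factor, had 338 ± 57.9 CPM (SD, n = 4) and 269 ± 46.5 CPM (SD, n = 2), and Dusp6, a phosphatase that dampens ERK signalling, had 419 ± 72.6 and 347 ± 29.9 CPM. Both overlapped between the diets. Rhob, a small GTPase with the highest level of the list, had 873 ± 87.2 and 859 ± 93.2 CPM (-0.02, SE 0.15). Jund, the other Jun family member of AP-1 and named after its values were seen, had 121 ± 29.4 and 132 ± 49.7 CPM (0.09, SE 0.33). These 2 overlapped as well, and the sign of neither held when M7 was left out. Fos, named after its values were seen, was too rare to test, with 11 UMIs in 7 control cells and none in the 82 cells of 9-week HFD. Of the 11 UMIs, 7 came from M2, 4 of them from 1 cell. For the HFD cells a count of 0 allows up to 3.66% of cells with a UMI (3 counts over 82 cells). The exact 95% interval, for counting error only, reaches 4.4%. The summed level of the list was 2734 to 3713 CPM in the controls and 2518 and 2665 CPM after HFD.

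The genes next to Jun in order of p did not pass. On the lower side these were Sike1, Chst1, Gm42418 and Upk1b. Sike1, a suppressor of the kinase IKK epsilon, had 175, 157, 126 and 135 CPM in the controls and 69.5 and 42.3 CPM after HFD (log2 fold change -1.41, SE 0.38, edgeR adjusted p = 0.411). Chst1, a carbohydrate sulfotransferase, had 147, 62.6, 85.4 and 67.3 CPM beside 27.8 and 18.1 CPM (-1.95, SE 0.54, adjusted p = 0.411). The groups of both genes did not overlap over the 3 plates together, but both overlapped on plate 10 alone, where Chst1 was 55.5 ± 12.8 CPM in the controls (SD, n = 4) and 58.3 ± 54.1 CPM after HFD (SD, n = 2), and Chst1 also overlapped on plate 12. Both genes passed in 1 alternative, added after the data were seen, which left out the 15 control and 8 HFD cells with markers of another type other than Ighm. Upk1b, a tetraspanin, had 130 to 277 CPM in the controls and 55.6 and 121 CPM after HFD.

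On the higher side the 5 genes with the smallest p were Top1, Ctsc, Zfp260, Zfand6 and Irf2bp2. Top1, the DNA topoisomerase that relieves twist ahead of transcription, had 192, 165, 216 and 153 CPM in the controls and 292 and 351 CPM after HFD (log2 fold change 0.82, SE 0.23, edgeR adjusted p = 0.411). Its HFD replicates stood above all controls. Per plate the summed 16-week HFD cells, which shared the barcode range, had Top1 at 186, 267 and 175 CPM, beside 306, 364 and 274 CPM in 9-week HFD and 166, 200 and 177 CPM in control. On plates 7 and 9, where HFD of 1 week held the lower barcodes, Top1 was lower after HFD, with 259 and 252 CPM beside 372 and 324 CPM in control. On the 5 other plates with control in the lower barcodes it was higher in control on 3, and with 1 diet in both ranges it was higher in barcodes 1 to 96 in 4 of 6 cases. Irf2bp2, a corepressor that binds the interferon regulatory factor IRF2, had 102 to 143 CPM and then 216 and 236 CPM (0.85, adjusted p = 0.564). The zinc finger genes Zfp260 and Zfand6 had log2 fold changes of 1.33 and 0.94 with an adjusted p of 0.515 each. In these genes, too, the diets did not overlap over the 3 plates together. On single plates the diets overlapped on plate 12 for Top1, Ctsc and Zfp260, on plate 10 for Zfand6 and on plate 11 for Irf2bp2.

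Gm42418, a predicted gene known to collect reads of ribosomal RNA, differed between the HFD replicates and between plates. Its level was 1432 to 2541 CPM in the controls, 2038 CPM in M7 and 931 CPM in M8 (log2 fold change -0.53, edgeR adjusted p = 0.411), so the diets overlapped. Without M7 it was called (-1.19, adjusted p = 1.08e-06), and without M8 its log2 fold change was -0.07 (adjusted p = 0.973). It was also called without plate 11 (-1.15, adjusted p = 0.000256), whereas without plate 10 its log2 fold change was -0.16 (adjusted p = 0.987). Transcripts of the mitochondrial genome differed between the HFD replicates too. All 9 in the data were tested, 3 were lower at an unadjusted p under 0.05 (33.3%, beside 2.85% of all genes), and the median was -0.10. The ribosomal RNA mt-Rnr2 had 8776 to 10028 CPM in the controls, 9473 CPM in M7 and 5554 CPM in M8 (-0.33, edgeR adjusted p = 0.868), and was called without M7 (-0.77, adjusted p = 0.00348) and without plate 11 (-0.86, adjusted p = 0.000756). The cytochrome oxidase subunit mt-Co1 had 1776 to 2649 CPM beside 1669 and 1650 CPM (-0.36, adjusted p = 0.868), and the complex I subunit mt-Nd5 had 3226 to 3700 CPM beside 3192 and 2399 CPM. The mitochondrial share of transcripts was 2.82 to 3.26% in the controls, 3.04% in M7 and 2.34% in M8. Within plates it varied in both HFD replicates. On plate 10 it was 2.27% in M7 and 2.17% in M8 beside 3.17 to 4.03% in the controls, and on plate 11 it was 3.84% in M7 and 2.65% in M8 beside 2.87 to 3.3%. On plate 12 it was 2.57% in M7, within the 2.19 to 3.17% of the controls, and 2.05% in M8. The part of this in the values above was not tested.

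No homeostatic gene passed the test. All 33 of its listed genes were tested, none was called, 1 was higher at an unadjusted p under 0.05 (3.03%, beside 1.97% of all genes) and none was lower (beside 2.85%). Their log2 fold changes lay between -0.16 and 0.28 with a median of 0.07. P2ry12, the purinergic receptor that guides process movement, had 4336, 3954, 4158 and 4165 CPM in the controls and 3471 and 3940 CPM after HFD (-0.16, SE 0.13, edgeR adjusted p = 0.984). Both HFD replicates lay below all controls over the 3 plates together, M8 only narrowly, but the diets overlapped on each single plate. On plate 12 the HFD mean was the higher one, at 4332 CPM beside 4166 CPM in control. P2ry12 was the 1 gene of the 33 that was lower without overlap (3.03%, beside 7.31% of all genes). Tmem119, a microglial membrane protein, had 2319 ± 70.1 CPM (SD, n = 4) and 2070 ± 321 CPM (SD, n = 2). Cx3cr1, the receptor for neuronal fractalkine, had 6894 ± 653 and 6646 ± 882 CPM, and Csf1r, the growth factor receptor on which microglia depend, had 6540 ± 373 and 7013 ± 141 CPM. These 3 overlapped between the diets. Fcrls and Olfml3 were higher in both HFD replicates than in all controls over the 3 plates together. Fcrls had 964 to 1319 CPM beside 1454 and 1330 CPM (0.28, adjusted p = 0.984). Olfml3 had 1858 to 2226 CPM beside 2483 and 2520 CPM (0.25, adjusted p = 0.984). On single plates Fcrls overlapped on plates 11 and 12 and Olfml3 on plates 10 and 12. Of the 33 genes, 3 were higher without overlap (9.09%, beside 7.38% of all genes). The antigens used for the sort were also measured. Ptprc, which encodes CD45, had 509 to 622 CPM and then 675 and 761 CPM (0.35, SE 0.16, adjusted p = 0.955), and Itgam, which encodes CD11b, had 889 to 1092 CPM beside 1127 and 1027 CPM.

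No lysosomal gene passed the test, and most had a positive log2 fold change. Of 29 tested, 22 had a positive log2 fold change (75.9%) and 7 a negative one, which 49.9% of all genes had. The median was 0.13, beside 0.00 over all genes. In 7 of them (24.1%) both HFD replicates lay above all controls, beside 7.38% of all genes, and 4 were higher at an unadjusted p under 0.05 (13.8%, beside 1.97%). Ctsc, the protease that activates granule serine proteases, had 594, 461, 487 and 404 CPM in the controls and 675 and 749 CPM after HFD (0.55, SE 0.17, edgeR adjusted p = 0.411). Both HFD replicates lay above every control. On the same plates Ctsc was 595, 726 and 908 CPM in the summed 16-week HFD cells, 653, 773 and 686 CPM in 9-week HFD and 407, 551 and 495 CPM in control. On plates 7 and 9, where HFD of 1 week held the lower barcodes, Ctsc was 784 and 601 CPM after HFD and 708 and 583 CPM in control. Where 1 diet filled both ranges of 1 plate, Ctsc was higher in barcodes 1 to 96 in 2 of 6 cases, and on the 5 other plates with control in the lower barcodes it was higher in control on 1. Cd63, a tetraspanin of late endosomes, had 151 to 209 CPM and then 264 and 254 CPM (0.61, adjusted p = 0.868). The cathepsin Ctsz had 944 to 1168 CPM and then 1301 and 1305 CPM (0.30, adjusted p = 0.955). On single plates Cd63 overlapped on plates 10 and 12 and Ctsz on plates 10 and 11. The protease inhibitor Cst3, an abundant member, had a log2 fold change of 0.07. The summed level of the list was 61081 to 70359 CPM in the controls and 68430 and 70143 CPM after HFD, within the control range.

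**Figure D4:**
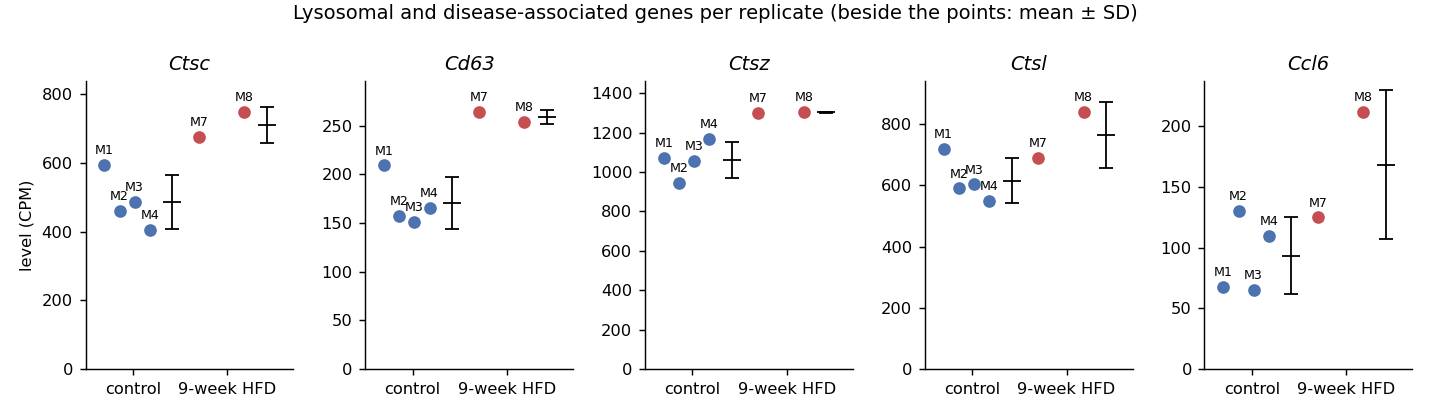
Levels in CPM (vertical axes, from 0) of 3 lysosomal genes, of Ctsl and of the chemokine gene Ccl6 in control replicates (blue) and 9-week HFD replicates (red), with mean and SD beside the points. Over the 3 plates together Ctsc, Cd63 and Ctsz do not overlap between the diets, whereas M7 falls within the control range for Ctsl at 689 CPM and for Ccl6 at 125 CPM.

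The genes of disease-associated microglia, a state known from neurodegeneration, shared some of these members. Of the 20 in the data, 12 were tested and 4 were higher at an unadjusted p under 0.05 (33.3%, beside 1.97% of all genes), with a median of 0.22, and 5 of the 12 had a negative log2 fold change. Ccl6, a chemokine, had 67.9, 130, 65.3 and 110 CPM in the controls and 125 and 212 CPM after HFD (0.85, SE 0.32, edgeR adjusted p = 0.868). Ctsl had 550 to 719 CPM and then 689 and 840 CPM, and Ctsb had 1691 to 2191 CPM and then 2239 and 2151 CPM. Ctsd, the lysosomal aspartic protease with the highest level of the list, had 3337 to 4200 CPM and then 3735 and 3704 CPM (-0.03, adjusted p = 0.997). The groups overlapped in all 4. Lpl, the lipase that frees fatty acids from lipoproteins, was too rare for the filter, with 193 CPM in M8 and 10 to 36.7 CPM in every other replicate. Of the 32 Lpl UMIs of M8, 26 came from 1 cell, and no other cell held more than 4. That cell, from plate 12, had 4285 UMIs, with 6 of P2ry12, 8 of Cx3cr1, 1 of Cd63 and none of Tmem119. Lpl was named after its values were seen.

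No inflammatory gene passed the test. Of 11 tested cytokine, chemokine and NF-kappa B genes none was past an unadjusted p of 0.05 (beside 4.82% of all genes). None lay apart between the diets, beside 7.31% of all genes lower and 7.38% higher, and the median was 0.01. Nlrp3, the inflammasome sensor, had 88 ± 40.3 CPM (SD, n = 4) and 68 ± 2.17 CPM (SD, n = 2). The alarmin Il1a had 101 ± 30.1 and 81.5 ± 12.7 CPM, and Nfkb1 had 328 ± 71 and 364 ± 23.3 CPM. Tnf and Il6 were too rare to test. Tnf had 28.3, 26.8, 25.1 and 18.3 CPM in the controls, from 3 to 6 transcripts each, and 6.95 and 6.04 CPM after HFD, from 1 transcript each. Il6 had 25.1 to 55 CPM and then 13.9 and 18.1 CPM, from 2 and 3 transcripts. In both genes the HFD replicates lay below all controls, on at most 9 transcripts in any replicate. Il1b had 16 transcripts in M2 and at most 2 in any other replicate.

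The other immune lists held no call. Interferon response genes had a median of -0.15 over 6 tested, with Sp100, a nuclear body protein, at 44.7 to 75.3 CPM and then 34.8 and 30.2 CPM (-0.89, edgeR adjusted p = 0.984) and Bst2, which tethers virions, at 98.2 ± 30.2 (SD, n = 4) and 66.6 ± 25.4 CPM (SD, n = 2). Of the 6, 3 had a positive log2 fold change, the highest being that of Trim30a, a tripartite motif gene, with 131 ± 40.6 and 157 ± 34.8 CPM (0.25), which was -0.30 without plate 10 and -0.02 without M8. Of 8 MHC class I presentation genes none was past an unadjusted p of 0.05 (beside 4.82% of all genes), and B2m, the invariant light chain, had 2796 ± 170 and 3089 ± 110 CPM. For MHC class II only H2-DMa, which loads peptides, could be tested, at 91.7 to 192 CPM in the controls and 243 and 212 CPM after HFD (0.51, adjusted p = 0.984). The 7 tested complement genes had log2 fold changes between -0.01 and 0.16, with C1qa and C1qb, 2 chains of the initiating C1q molecule, at 0.08 each. Without plate 11 these 2 were -0.03 and -0.01, and without M8 C1qa was -0.13. The 15 Fc receptor and ITAM signalling genes had a median of -0.02, and Tyrobp and Lyn, an adaptor and a kinase of this route, overlapped between the diets. Among 13 toll-like receptor genes 10 had a positive log2 fold change (76.9%, beside 50.1% of all genes) and the median was 0.23. None was higher at an unadjusted p under 0.05 and 1 was lower (7.69%, beside 2.85% of all genes). The lower one was Cd180, a receptor homologue that restrains signalling through Tlr4, with 640 to 789 CPM and then 563 and 483 CPM (-0.43, SE 0.17, adjusted p = 0.868). Tlr7, which senses single-stranded RNA, had 159 to 181 CPM and then 223 and 242 CPM (0.46, adjusted p = 0.984).

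**Figure D5:**
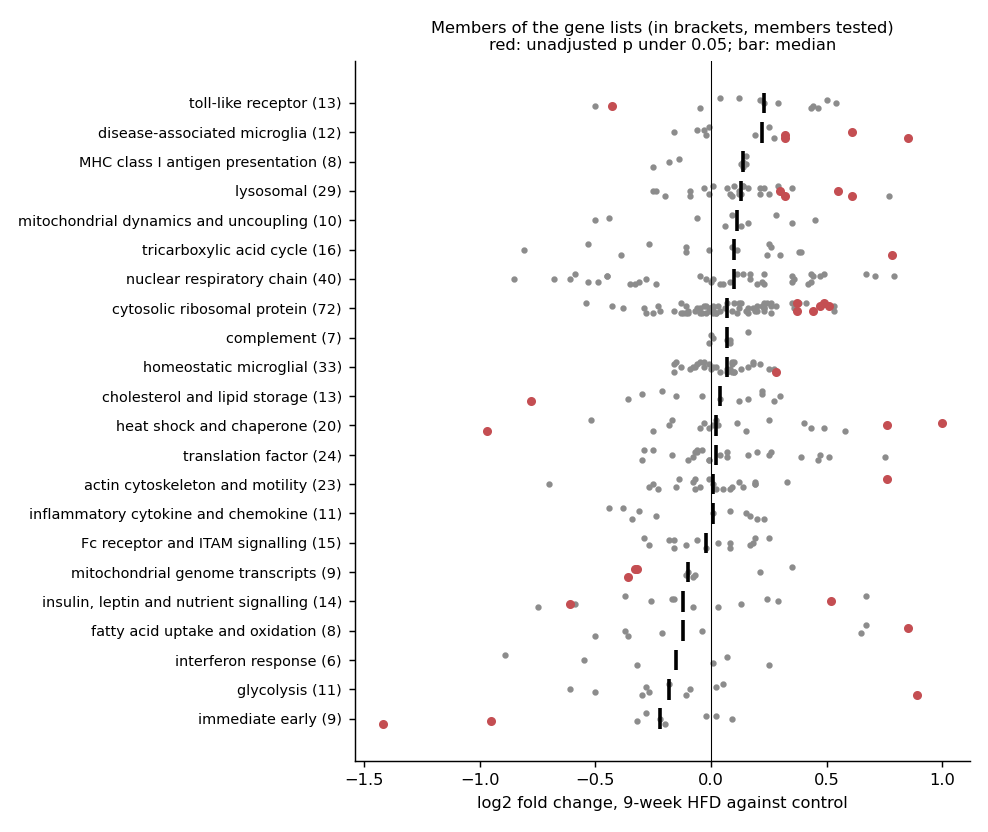
Log2 fold changes of 9-week HFD against control (horizontal axis) for the tested members of each gene list with at least 6 tested members, ordered by the median (black bar). Red points have an unadjusted p under 0.05, and the medians run from -0.22 for immediate early genes to 0.23 for toll-like receptor genes.

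No tested gene of energy metabolism was called. Of 8 tested genes of fatty acid uptake and oxidation, 1 was higher at an unadjusted p under 0.05 (12.5%, beside 1.97% of all genes), 5 had a negative log2 fold change, with -0.50 as the lowest, and the median was -0.12. Acadm, the medium-chain acyl-CoA dehydrogenase, had 45.3, 71.6, 65.3 and 73.4 CPM in the controls and 118 and 115 CPM after HFD (0.85, SE 0.38, edgeR adjusted p = 0.879). Hadha, a subunit of the trifunctional protein of the same pathway, had 40.2 to 89.5 CPM and then 111 and 115 CPM (0.67, adjusted p = 0.984). In both the diets did not overlap over the 3 plates together, which made 2 of the 8 genes higher without overlap (25%, beside 7.38% of all genes). On single plates Hadha overlapped on all 3. Acadm overlapped on plate 12, where its mean was 71.5 CPM after HFD and 84.6 CPM in control. Citrate synthase, Cs, had 60.3 to 79.2 CPM and then 97.4 and 145 CPM (0.78, adjusted p = 0.937), whereas Suclg1, a later enzyme of the tricarboxylic acid cycle, had 70.4 ± 22.9 CPM (SD, n = 4) and 39.5 ± 13.1 CPM (SD, n = 2). The median over 16 genes of the cycle was 0.10.

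Glycolysis genes had a median of -0.18 over 11 tested. Pfkfb4, which sets the level of a phosphofructokinase activator, had 17 to 105 CPM in the controls and 111 and 127 CPM after HFD (0.89, edgeR adjusted p = 0.868), and Hk3, a hexokinase, had 174 ± 36.9 CPM (SD, n = 4) and 121 ± 42.9 CPM (SD, n = 2). The 40 nuclear respiratory chain genes had a median of 0.10 and none was past an unadjusted p of 0.05 (beside 4.82% of all genes). Among them Cox4i1 of complex IV had 126 to 174 CPM and then 104 and 109 CPM, and Ndufs7 of complex I had 34 to 49.2 CPM and then 76.5 and 78.6 CPM. Of the 40 genes, 5 were lower without overlap and 5 higher (12.5% each, beside 7.31 and 7.38% of all genes). Atp5d of the ATP synthase overlapped. Ucp2, the uncoupling protein of the inner mitochondrial membrane, had 520 ± 63.2 and 581 ± 34.7 CPM (0.16, SE 0.17, adjusted p = 0.984). Dnm1l, which encodes the fission protein DRP1, had 46.5 ± 11.2 and 46.7 ± 36.5 CPM from at most 12 transcripts per replicate.

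No gene of lipid handling or nutrient signalling was called. Of 13 tested cholesterol and lipid storage genes 7 had a positive log2 fold change and 6 a negative one, between -0.78 and 0.30 with a median of 0.04. The liver X receptor gene Nr1h2 alone was past an unadjusted p of 0.05, on the lower side (7.69%, beside 2.85% of all genes), with 73.6 to 165 CPM and then 76.5 and 54.4 CPM (-0.78, edgeR adjusted p = 0.984). The cholesterol exporter Abca1 had 311 to 425 CPM and then 264 and 296 CPM (-0.36, adjusted p = 0.984), and the lipoprotein receptor Lrp1 had 581 to 640 CPM and then 549 and 550 CPM (-0.15). Both HFD replicates lay below all controls in these last 2, which made 2 of the 13 genes lower without overlap (15.4%, beside 7.31% of all genes). On single plates Abca1 overlapped on plates 10 and 12 and Lrp1 on plates 10 and 11. Among 14 genes of insulin, leptin and nutrient signalling 6 had a positive log2 fold change and 8 a negative one, with a median of -0.12. Rptor, which recruits substrates to mTOR complex 1, had 183 to 231 CPM and then 132 and 139 CPM (-0.61, adjusted p = 0.955). The insulin receptor gene Insr had 90.4 to 112 CPM and then 41.7 and 72.5 CPM (-0.75, adjusted p = 0.984). Akt1, a kinase downstream of that receptor, had 159 to 226 CPM and then 243 and 266 CPM (0.52, adjusted p = 0.984). All 3 lay apart between the diets over the 3 plates together. On single plates Akt1 overlapped on all 3, Rptor on plates 10 and 12, and Insr on plates 10 and 11. On plate 12 Insr was 0 CPM in both HFD replicates. Of the 14 genes, 2 were lower without overlap (14.3%, beside 7.31% of all genes) and 1 was higher (7.14%, beside 7.38%).

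No ribosomal protein gene passed the test. Of 72 tested, 45 had a positive log2 fold change (62.5%, beside 50.1% of all genes), and the median was 0.07. In 15 both HFD replicates lay above all controls (20.8%, beside 7.38% of all genes) and in 4 below them (5.56%, beside 7.31%). Rpl17 had 385, 429, 557 and 410 CPM in the controls and 605 and 653 CPM after HFD (0.49, SE 0.17, edgeR adjusted p = 0.711), and Rps12 and Rpl39 had log2 fold changes of 0.37 and 0.51. The summed level of the list was 21984 to 23327 CPM in the controls and 24968 and 24058 CPM after HFD, so it did not overlap between the diets. Translation factor genes had a median of 0.02 over 24 tested, with Eif1b at 0.75 (adjusted p = 0.984) and Pabpc1, the poly(A)-binding protein gene, at 0.20. Copies and pseudogenes of ribosomal protein genes share sequence, so their counts are uncertain.

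No chaperone, cytoskeletal or proliferation gene passed the test. Of 20 chaperone genes the median was 0.02, with Hsp90aa1, a stress-inducible chaperone, at 114 ± 27.3 CPM (SD, n = 4) and 60.8 ± 51.8 CPM (SD, n = 2) and the J-domain co-chaperones Dnaja1 and Dnajb1 at log2 fold changes of 0.76 and 1.00 (edgeR adjusted p = 0.868 for each of the 3). All 3 overlapped between the diets, and without M8 the value of Dnajb1 was -0.03. Of 23 actin and motility genes the median was 0.01. Actb had 2960 to 3332 CPM and then 2712 and 2653 CPM (-0.23, adjusted p = 0.984), and Tmsb4x, which binds actin monomers, had 3339 to 3793 CPM and then 4076 and 4007 CPM (0.19). Rac2, a GTPase of migrating immune cells, and Was, which activates actin branching, had log2 fold changes of 0.76 and -0.70 and overlapped. Of 21 proliferation genes in the data 3 could be tested, and Tubb5, a tubulin, had 183 to 209 CPM and then 278 and 248 CPM (0.42, adjusted p = 0.984).

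No difference in the diversity of cells was detected. The number of genes per cell, after thinning each cell to 1200 UMIs, was 825, 829, 831 and 822 in the controls and 818 and 824 after HFD, a difference of -5.62 (two-sided exact permutation p = 0.2, adjusted p = 0.6). Without thinning the medians were 1855 ± 203 (SD, n = 4) and 1912 ± 186 (SD, n = 2). The mean distance between cells of 1 replicate and plate, taken as 1 minus the correlation over the 1000 most variable genes, was 0.584, 0.593, 0.596 and 0.593 in the controls and 0.588 and 0.586 after HFD, a difference of -0.0042 (two-sided exact permutation p = 0.4, adjusted p = 0.6). The HFD values fell within the control range for distance. With 15 assignments of the diets to the replicates the smallest p that this design allows is 0.0667, so no cell measure could pass 0.05.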

How the data were processed

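Single microglia were sequenced by CEL-Seq2 on 13 plates, of which 3 are used here. The authors' deposited values are estimated counts of transcripts per gene and well, that is, UMI counts corrected for chance repeats, with no normalization. Per the methods and the submitters' processing notes, reads were mapped to mm10 with STAR, counted with featureCounts and checked with FastQC. The genes were those of the authors' filtered table, which equalled the plate tables in the 204 cells of these plates compared, and 617 columns of per-sample values were not used. Counts were summed over cells per replicate identifier, rounded to whole numbers and fitted with edgeR 4.0.16 (quasi-likelihood test, TMM, filterByExpr) in R 4.3.3, with Benjamini-Hochberg adjustment over all genes tested. DESeq2 1.42.0 and limma 3.58.1 were alternatives. CPM are per 1000000 transcripts of the filtered genes, which left out 21% of transcripts, scaled by TMM unless stated. The script was tested on simulated data. The members and gene lists were chosen with earlier results of these data known. Named genes are the 5 with the smallest p in each direction, up to 4 per list among its 3 smallest p and 2 highest levels, those that the study names, and others said to be chosen afterwards. Alternatives were other scalings, filters and cell minimums, plates or replicates left out, and cells with other markers left out. The position of Jun comes from GENCODE M21 (GRCm38) and its promoter window from RefSeq, and doublets were not called since cells were sorted singly.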

Additional observations from a re-analysis of the deposited data

Results flagged for a closer look

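In 5 of 112 sets of 4 control replicates examined, 1 replicate lay far from the other controls by Dixon's ratio, and chance alone gives about 1 in 20. Akt1 was 226 CPM in M3 and 159 to 164 CPM in the other controls (ratio 0.923), and Rhob was 1003 CPM in M4 and 818 to 845 CPM in the others (ratio 0.854). The summed level of MHC class II genes was 110 CPM in M4 and 209 to 221 CPM in the others (ratio 0.892). The summed level of fatty acid uptake and oxidation genes was 1002 CPM in M2 and 855 to 879 CPM in the others (ratio 0.837), and that of ribosomal protein genes was 21984 CPM in M2 and 23108 to 23327 CPM in the others (ratio 0.837).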

How the results depend on the processing

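Beside 1 gene called, DESeq2 called 0 genes (57 at an unadjusted p under 0.05), limma-voom on sums per replicate and plate 0 (93) and edgeR without plate 10 called 0 (159). Testing every gene with at least 1 count called 2 genes (Jun and Lpl), leaving out plate 11 called 2 (Gm42418 and mt-Rnr2), and leaving out cells with markers of another type other than Ighm, added after the data were seen, called 3 (Chst1, Jun and Sike1). Leaving out each replicate gave 0 to 4 genes: 0 without M2 (203 at an unadjusted p under 0.05), 3 without M7 (Gm42418, Lpl and mt-Rnr2) and 4 without M8 (Gm10717, Gm21738, Jun and mt-Rnr1), where the lone HFD replicate is assumed to vary like the controls. The cause was not tested. Gm10717, Gm21738, Lpl and mt-Rnr1 were named for these calls.

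Of 82 named genes, 62 kept the sign of their log2 fold change under every alternative that tested them. It reversed without plate 11 for Dusp6 (0.03), Cst3 (-0.07), C1qa (-0.03), C1qb (-0.01), Tyrobp (-0.04), Abca1 (0.02) and mt-Rnr1 (-0.39). It reversed without plate 12 for Cx3cr1 (0.03), and without cells with markers of another type for Cst3 (-0.01), Tmem119 (0.02) and Nfkb1 (-0.12). With replicates left out, and the lowest value first, it ran for C1qa from -0.13 without M8 to 0.25, for Lyn from -0.10 without M8 to 0.51, for Dnajb1 from -0.03 without M8 to 1.55, for mt-Cytb from -0.29 to 0.04 without M8, and for Dnm1l from -1.13 without M8 to 0.64 (-0.06 without M2). It ran for Cx3cr1 from -0.20 to 0.07 without M7, for mt-Rnr1 from -0.52 without M7 to 0.70, for Gm10717 from -0.39 without M7 to 0.72 and for Gm21738 from -0.43 without M7 to 0.71. It ran for Rhob from -0.14 without M8 to 0.08 without M7 (0.05 without M4), for Ctsd from -0.09 without M2 to 0.02 without M1 or M3, for Trim30a from -0.02 without M8 to 0.44 and for Jund from -0.34 without M7 to 0.44 (-0.02 without M1). Other reversals of these 4 were Rhob 0.00 with a minimum count of 30, 0.01 on sums per replicate and plate by edgeR and 0.01 by limma-voom, 0.05 without cells with markers of another type and 0.27 without plate 11; Ctsd 0.00 by limma-voom and without plate 12, and 0.01 without cells with markers of another type and without plate 11; Trim30a -0.05 without such cells with Ighm not counted, and -0.30 without plate 10; and Jund -0.04 with a minimum of 2000 transcripts per cell and -0.08 without plate 12. The difference in transcripts per cell, 9-week HFD minus control, ran from -159 without M8 to 368 without M7 and was -10 without M4. Genes per cell differed by 57 without thinning and by 1.75 without plate 11, and the distance between cells by 0.00526 without plate 11.

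No paired analysis was possible because the diets share no replicate identifier, while the plate, which both share, was a block in 2 fits (Jun at -1.40 by edgeR and -1.29 by limma-voom). There were 2 HFD replicates, and diet cannot be told apart from barcode range.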
